A study of Homo sapiens with 12 samples.

Results

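The difference between undifferentiated U937 cells transduced for EVI1 and those given the empty vector was described across 19775 genes. It rests on 6 of the 12 arrays of the study, the 3 titled U937_EVI1 EtOH and the 3 titled U937_vec EtOH, chosen by their titles. U937 is an established human myelomonocytic leukaemia cell line. U937_vec cells carried the empty vector, U937_EVI1 cells carried the EVI1 expression vector, and both received ethanol (EtOH), the solvent of TPA, for 24 h while growing logarithmically. The other 6 arrays are the same populations after 24 h with TPA, a phorbol ester, at 50 ng/ml. The vector's promoter, and whether each population was a pool or 1 clone, are not given in the sources used here. The replicates are called biological in the design text, without saying whether they were transduced separately, so p-values measure the spread between cultures, which are numbered 1 to 3 in each population as in the titles.

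EVI1 is a transcription factor with 2 zinc finger domains, made from the MECOM locus, and it is known for its activation in a poor-risk group of acute myeloid leukaemias. Its first finger domain reads a sequence close to that of the GATA factors, and the protein recruits corepressors and can both repress and activate genes. U937 cells divide as immature monocytic cells in solvent and leave the cycle as macrophage-like cells in TPA. The comparison in ethanol asks how the populations differed before any such stimulus.

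The gene introduced could not be followed on these arrays. All 5 MECOM probe sets read 2.66 to 3.19 on the 6 ethanol arrays, among the dimmest on the arrays, at most at percentile 16.2, and none differed between the populations (smallest adjusted p = 0.88, limma with Benjamini-Hochberg adjustment). Whether the vector's insert holds the sequence that these probe sets target is not known here, so they do not check the labels, and the cells are called EVI1-labelled. Of 18 measured marker genes of monocytic lines 16 exceeded the lowest array median, 5.07, in both populations, with the granule protease gene CTSG at 13.56 and 13.17 and the lysozyme gene LYZ at 12.87 and 12.86. ITGAM and FCGR1A were the others. The list's median difference was -0.13 with 14 of 18 negative. MPO was called higher and PRTN3 lower, beside 3.27% called over all genes. Its summed log2 level ran from 142.8 to 146.9 on empty vector arrays and from 139.7 to 142.8 on EVI1-labelled arrays. Signal under 5.07 is treated here as array background, a level chosen without a detection test. Signal above it does not by itself identify a cell type: 7 of 10 erythroid, 5 of 11 megakaryocyte, 9 of 16 epithelial and fibroblast and 7 of 17 lymphoid markers also exceeded it in both populations. No erythroid, megakaryocyte or epithelial and fibroblast marker was called. Of the lymphoid markers PAX5 alone was, and the T and B cell genes CD3E, CD3G, CD8A and MS4A1 were below 5.07 in both populations. Summed over their genes, the log2 levels of these 4 lists ran from 60.2 to 61.4, 53.8 to 54.7, 82.0 to 83.3 and 83.7 to 85.6 on empty vector arrays, and from 61.4 to 61.7, 54.1 to 54.6, 83.1 to 84.7 and 85.1 to 87.8 on EVI1-labelled arrays, in the order erythroid, megakaryocyte, epithelial and fibroblast, and lymphoid; their part in the differences was not tested. RNA integrity was read from how far the 3' end of a transcript outshone its 5' end, which was 1.78 ± 0.07 (SD, n = 3) and 1.91 ± 0.16 for ACTB in empty vector and EVI1-labelled cells (exact permutation test, two-sided p = 0.3, the smallest possible being 0.1). Whole arrays correlated at 0.997 to 0.998 within a population and 0.995 to 0.996 between them.

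In ethanol 647 of 19775 genes, 3.27%, were called at an adjusted p below 0.05 (limma, Benjamini-Hochberg): 262 (1.32%) were higher and 385 (1.95%) lower in EVI1-labelled cells. Most were modest. The called genes differed by a median of 0.57 in size on the log2 scale, 70 differed by at least 1, and of the 12 that differed by at least 2 ZNF117 alone was higher. Of the 70, 20 were higher and 50 lower, so the large differences were mostly losses. Across all genes the median difference was 0.01, with 90% between -0.28 and 0.26. The 3 values of a population lay wholly to one side of the other's for all 647 called genes and for 4346 genes (22%) in all. An unadjusted p below 0.05 was reached by 2506 genes. Of the called genes 16 were below 5.07 in both populations. As the groups of the 647 did not overlap, leaving out any 1 of the 6 arrays could not change a sign. Only 303 of the 647 were called each time. Without EVI1-labelled culture 1, 2 or 3, 388, 369 and 466 genes passed, and 378, 419 and 462 without empty vector culture 1, 2 or 3. In bulk RNA fewer cells that express a gene and less of its RNA per cell cannot be told apart.

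**Figure D1:**
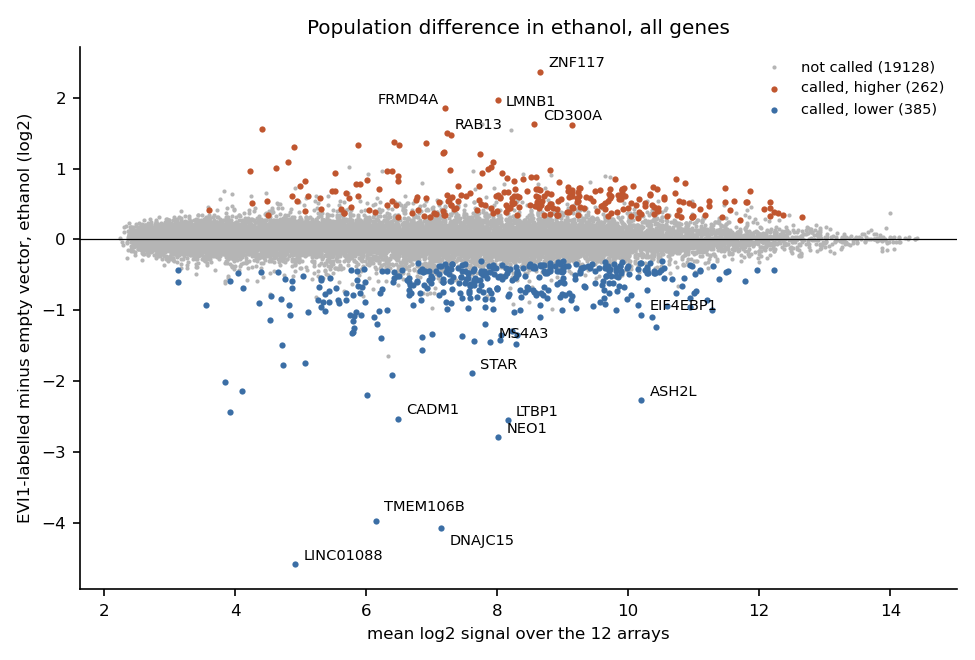
Each point is 1 of 19775 genes, with its mean log2 signal over the 12 arrays on the horizontal axis and the difference EVI1-labelled minus empty vector in ethanol (log2) on the vertical axis. The 262 genes called higher are orange and the 385 called lower are blue; the lower side reaches -4.59 and the higher side 2.37.

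The promoters of 4 genes with differences near the extremes are shown because EVI1 reads DNA. Of these 3 fell to group means below 5.07 in EVI1-labelled cells, and LMNB1 was among the largest rises. The 4 were picked by hand, and ZNF117, the largest rise, is not among them. Each run is the RefSeq GRCh38.p14 sequence from 250 bases before to 50 bases after the gene's start, 5' to 3' on the gene's strand, here the plus strand for all 4. LINC01088 lies at chr4:78971498-78971797, DNAJC15 at chr13:43023336-43023635, TMEM106B at chr7:12211044-12211343 and LMNB1 at chr5:126776373-126776672. Capitals mark GATAAG, searched on both strands, a motif that overlaps the one read by the GATA factors.
LINC01088: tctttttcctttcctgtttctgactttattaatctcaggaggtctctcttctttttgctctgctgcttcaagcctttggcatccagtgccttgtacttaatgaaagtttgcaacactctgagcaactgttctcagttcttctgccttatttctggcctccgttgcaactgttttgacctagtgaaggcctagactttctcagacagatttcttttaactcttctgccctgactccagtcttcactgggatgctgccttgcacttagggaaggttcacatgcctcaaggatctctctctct
DNAJC15: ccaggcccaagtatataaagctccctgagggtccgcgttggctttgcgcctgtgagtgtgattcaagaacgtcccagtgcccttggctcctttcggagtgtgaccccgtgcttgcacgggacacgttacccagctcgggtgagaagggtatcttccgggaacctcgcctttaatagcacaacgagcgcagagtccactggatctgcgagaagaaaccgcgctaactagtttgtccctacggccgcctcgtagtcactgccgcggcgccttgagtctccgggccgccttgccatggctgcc
TMEM106B: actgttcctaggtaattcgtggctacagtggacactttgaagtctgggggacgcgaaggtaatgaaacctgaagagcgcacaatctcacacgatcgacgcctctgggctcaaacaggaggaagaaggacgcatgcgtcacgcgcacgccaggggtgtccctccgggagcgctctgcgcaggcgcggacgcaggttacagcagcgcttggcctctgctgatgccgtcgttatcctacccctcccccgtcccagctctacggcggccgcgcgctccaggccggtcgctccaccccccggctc
LMNB1: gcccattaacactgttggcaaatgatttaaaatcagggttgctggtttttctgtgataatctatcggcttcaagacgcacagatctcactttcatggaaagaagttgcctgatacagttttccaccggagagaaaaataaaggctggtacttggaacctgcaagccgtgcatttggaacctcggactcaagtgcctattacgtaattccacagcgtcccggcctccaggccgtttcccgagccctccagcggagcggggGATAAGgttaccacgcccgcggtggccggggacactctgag
LMNB1 held the motif 1 time, from base 260 of its 300, and the other runs did not hold these letters. LINC01088 had 1 CpG in its window, against 24 for DNAJC15, 30 for TMEM106B and 16 for LMNB1. GATAAG stood in 6.36% of 27305 promoters of this length, in 5.08% of the 15384 tested genes that had one, in 8 of 219 genes called higher (3.65%) and in 12 of 285 called lower (4.21%). A match is a string of letters and not a measured binding site. The median number of CpGs was 25 for genes called higher, 26 for those called lower and 22 for all genes tested.

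The deepest losses were of 3 genes that had clear signal with the empty vector and group means below 5.07 with EVI1. LINC01088, a long noncoding RNA, read 7.93, 8.02 and 7.54 in empty vector cells, against 3.15, 3.57 and 3.01 with EVI1. The groups were far apart, with a difference of -4.59 ± 0.28 (SE) and an adjusted p of 1.42e-06 (limma). Its other 2 probe sets were dim on all arrays and did not pass. DNAJC15, a co-chaperone of protein import in the mitochondrial inner membrane, read 9.12, 9.27 and 8.94 against 5.11, 4.32 and 5.65, a difference of -4.08 ± 0.36. A second probe set of it was also called, at -2.07 ± 0.19. TMEM106B, a lysosomal membrane protein gene, read 8.13, 7.68 and 7.85 against 3.93, 3.57 and 4.21, a difference of -3.98 ± 0.21, and 2 more of its 4 probe sets were called lower at -3.58 and -2.05. Their levels in EVI1-labelled cells lay near or below 5.07, so the sizes of these differences depend on the background. Most other genes of the same functional groups were not called, and over all genes 3.27% were called. Of 17 measured genes of mitochondrial import and chaperones only GRPEL1, which encodes a nucleotide exchange factor, was also lower, at -0.45 ± 0.11, and it missed the threshold without any 1 of 5 arrays (0.0715 to 0.147; it was kept without EVI1-labelled culture 3). Of 23 lysosome genes TMEM106B alone was lower, while GRN, which encodes progranulin, was higher by 0.48 ± 0.12 and NPC2, a cholesterol carrier gene, by 0.42 ± 0.10. Both of these were lost without any 1 of the 6 arrays, at an adjusted p of 0.0622 to 0.184 for GRN and 0.0696 to 0.2 for NPC2. In a fit of every probe set, the others of GRN were called at 0.54 and 0.53, and the chosen one was not.

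NEO1, LTBP1 and CADM1, genes of surface and matrix proteins, came next in size among the named losses. NEO1 encodes neogenin, a receptor for netrins and repulsive guidance molecules. It read 9.01, 9.14 and 8.68 with the empty vector and 5.79, 6.27 and 6.41 in EVI1-labelled cells. The difference was -2.79 ± 0.17. LTBP1, which holds latent TGF-beta in the matrix, read 9.46, 9.30 and 8.84 against 6.60, 6.68 and 6.67, a difference of -2.55 ± 0.20. Its other probe set, at -0.91, was not called. CADM1, an immunoglobulin-like adhesion molecule gene, read 7.13, 7.17 and 6.94 against 4.60, 4.42 and 4.63, a difference of -2.53 ± 0.12. The ranges did not overlap for any of the 3, and CADM1 alone ended below 5.07. The adjusted p-values were 1.45e-06, 2.14e-05 and 1.38e-07 (limma). Of 25 measured adhesion and matrix genes these 3, the tetraspanin gene CD9 (-0.85 ± 0.15) and the P-selectin ligand gene SELPLG (-0.44 ± 0.11) were lower and none was higher, beside 1.95% lower over all genes. The list's median was -0.12 with 18 of 25 below 0, and the integrin genes ITGA4, ITGB1 and ITGB2 stood at -0.01, 0.01 and -0.07. CD9 was below 5.07 in EVI1-labelled cells. SELPLG lost its call without empty vector culture 1, 2 or 3 (0.193, 0.124 and 0.0747) or EVI1-labelled culture 1 or 2 (0.0948 and 0.219). CD24, a small anchored sialoglycoprotein gene, read 7.24, 7.45 and 6.89 against 5.66, 5.94 and 6.06, and 3 of its 6 probe sets were called lower. Further surface or secreted proteins lay outside the rule for named genes and were picked after their values were seen. The neural adhesion gene NEGR1 (-2.43), the thrombomodulin gene THBD (-2.19) and KITLG, which encodes stem cell factor (-1.49), were below 5.07 in EVI1-labelled cells, as was CLGN, a chaperone gene of the endoplasmic reticulum (-2.01).

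Of the TGF-beta pathway ID1 and LTBP1 were called. ID1, a helix-loop-helix inhibitor and direct target of bone morphogenetic protein signalling, read 8.16, 8.04 and 7.94 against 6.95, 6.39 and 6.82, a difference of -1.33 ± 0.12 with an adjusted p of 5.76e-05 (limma). With LTBP1 it made 2 of 22 measured genes of the pathway lower and none higher, beside 1.95% lower over all genes. The remaining 20 were not called and the list's median was 0.03: TGFB1 stood at -0.14, the receptor genes TGFBR1 and TGFBR2 at 0.02 and 0.31, the signal transducer gene SMAD3 at 0.06, and the inhibitor genes SMAD7, SKI and SKIL at 0.28, -0.15 and 0.45.

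The largest falls also held ASH2L, ZHX2, NFE2L3 and PLAG1, which act on chromatin or transcription. The lists of such genes are given beside 3.27% called over all genes. ASH2L, a core subunit of the histone methyltransferase complexes of the MLL family, was bright and tightly measured at 11.63, 11.74 and 11.71 with the empty vector and 9.36, 9.33 and 9.58 in EVI1-labelled cells. The difference was -2.27 ± 0.10 with an adjusted p of 1.33e-07 (limma). It was the only one of 24 chromatin regulators called, and the other 23, among them KMT2A at 0.02, EZH2 at -0.14 and WDR5 at 0.12, were not. ZHX2, a zinc finger and homeobox repressor gene, read 7.35, 7.40 and 7.29 against 5.61, 5.10 and 5.58, a difference of -1.92. NFE2L3, a basic leucine zipper factor gene, differed by -1.74 and ended below 5.07, and PLAG1, a zinc finger factor gene, by -1.25. None of 19 myeloid and progenitor transcription factors was called. CEBPA stood at -0.10, MYB at -0.05, GATA2 at 0.02, MEIS1 at 0.13 and SPI1, which encodes PU.1, at -0.27.

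**Figure D2:**
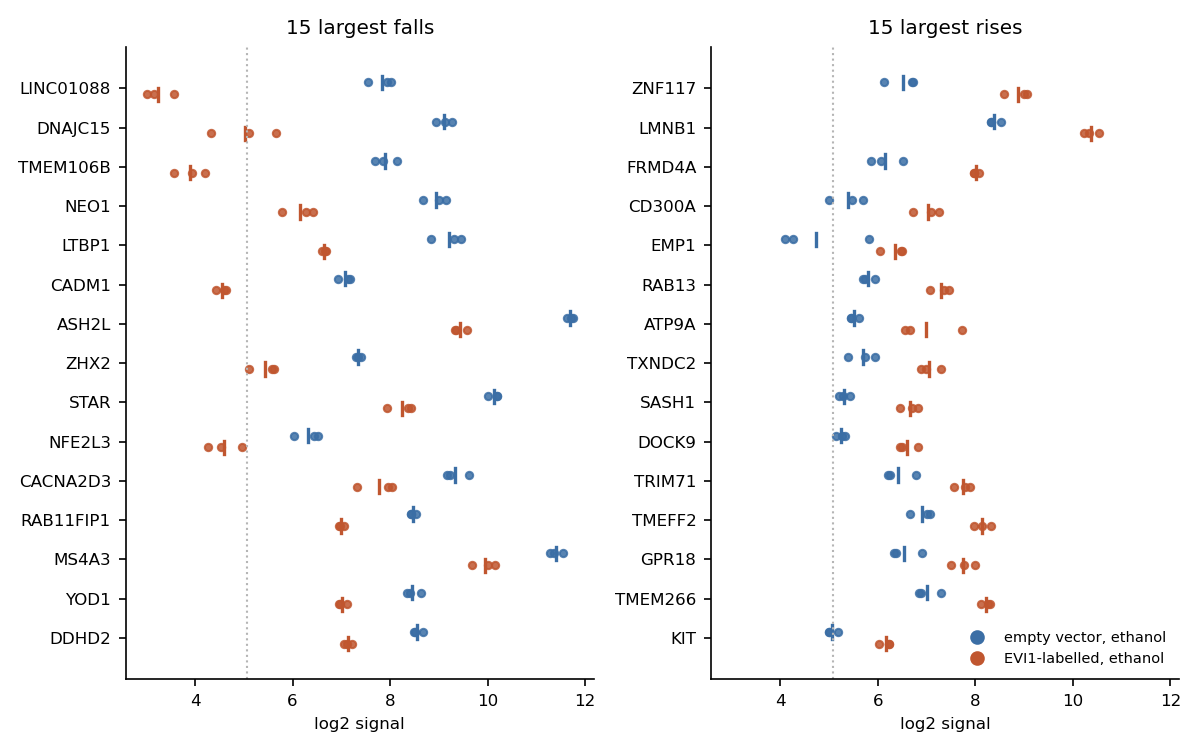
Log2 signal on each of the 6 ethanol arrays for the 15 largest falls (left) and the 15 largest rises (right) of the named genes; blue points are empty vector cells, orange points EVI1-labelled cells, short bars group means and the dotted line the lowest array median, 5.07. The colours do not overlap in any row, and the EVI1-labelled means of LINC01088, DNAJC15, TMEM106B, CADM1 and NFE2L3 and the empty vector means of EMP1 and KIT lie left of the line.

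Myeloid granule and receptor genes moved in both directions. MS4A3, a membrane protein gene of granulocyte and monocyte progenitors that had been reported as an EVI1 target in this line, read 11.54, 11.36 and 11.28 with the empty vector and 10.16, 9.68 and 10.00 in EVI1-labelled cells. The difference was -1.45 ± 0.24 (adjusted p = 0.00333, limma). That report may rest on these samples. Its second probe set was lower by a like amount, at -1.40 ± 0.15. PRTN3, which encodes proteinase 3, read 8.41, 8.11 and 8.05 against 7.33, 6.65 and 7.31 (-1.09 ± 0.21), and its adjusted p was 0.0566 without empty vector culture 1. The myeloperoxidase gene MPO went the other way, from 6.38, 5.97 and 5.69 to 7.02, 6.78 and 6.77 (0.84 ± 0.17). Its call was lost without empty vector culture 2 or 3 (0.0564 and 0.0577) or EVI1-labelled culture 1 (0.0675), and its other probe set was not called. The 15 granule genes had a median of -0.40, against 0.01 for all genes. Of them 1 was higher and 2 lower, beside 3.27% called over all genes. The protease genes ELANE, CTSG and AZU1 stood at -0.40 ± 0.26, -0.40 ± 0.43 and -0.49 ± 0.29. None of the 3 was called, and their standard errors come from the spread over all 4 groups.

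Among 21 inhibitory and activating receptors of myeloid cells CD300A was higher and LILRA2 and SIGLEC7 were lower, beside 3.27% called over all genes. CD300A, an inhibitory receptor for phosphatidylserine, read 5.47, 5.0 and 5.70 against 6.72, 7.26 and 7.08, a difference of 1.63 ± 0.16 (adjusted p = 9.89e-05, limma). The other probe sets of CD300A, at 0.65 and 0.09, were not called. LILRA2, an activating leukocyte receptor gene, differed by -0.83 ± 0.14 and SIGLEC7, an inhibitory sialic acid receptor gene, by -0.79 ± 0.12. The other probe sets of SIGLEC7, at -0.23 and -0.12, were not called. Of 20 chemokine and chemokine receptor genes CCR2 alone was called. This receptor for CCL2 read 6.37, 5.63 and 5.96 against 4.68, 5.04 and 5.05, a difference of -1.06 ± 0.18 that ended below 5.07. Its other probe set, at 0.04, was not called. Markers that macrophages gain were mostly at background: of 18 measured, 8 exceeded 5.07 in both populations and CD36, a scavenger receptor gene, was the only one called, at -0.92 ± 0.23. Its adjusted p of 0.044 rose above 0.05 without empty vector culture 1, 2 or 3 (0.144, 0.0678 and 0.172) or EVI1-labelled culture 1 or 2 (0.175 and 0.21). In a fit of every probe set, others of CD36 were called at -1.21 and -1.09, with EVI1-labelled arrays below 5.07. Those at 0.02 and -0.06 were not called, nor was the chosen one. CD163, MRC1 and MSR1 stood at 0.00, -0.12 and 0.17, all below 5.07.

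The other large losses were of genes with varied roles. STAR, which carries cholesterol into mitochondria, read 10.20, 10.20 and 10.00 against 8.37, 7.94 and 8.42, a difference of -1.89 ± 0.22. Of 15 cholesterol genes only LSS, which encodes lanosterol synthase, was also lower, at -0.46 ± 0.09, beside 1.95% lower over all genes. LSS missed the threshold without empty vector culture 2 (0.0764) or EVI1-labelled culture 1 or 2 (0.0659 and 0.0698). CACNA2D3, an accessory subunit of voltage-gated calcium channels, read 9.61, 9.16 and 9.22 against 8.04, 7.31 and 7.95, a difference of -1.56 ± 0.26. P2RY2, a receptor for extracellular ATP and UTP, was even within groups at 7.58, 7.60 and 7.59 against 6.42, 6.20 and 6.56, a difference of -1.20 ± 0.12. The cyclic GMP phosphodiesterase gene PDE9A differed by -1.39, the phospholipase gene DDHD2 by -1.42, the phospholipid phosphatase gene PLPP5 by -1.10, the stress-induced sestrin gene SESN3 by -1.38, the deubiquitinase gene YOD1 by -1.44, the signal peptide peptidase gene HM13 by -1.23 and FAM20C, a kinase gene of the secretory pathway, by -1.35. No other probe set of FAM20C was called, the brightest of them standing at -0.09. RAB11FIP1, an effector of recycling endosomes, differed by -1.47 ± 0.19 and the Rab GTPase gene RAB31 by -0.73 ± 0.14. INAVA, an innate immune activator gene, at -1.20, lost its call without empty vector culture 1 or 2 (0.0856 and 0.0669) or EVI1-labelled culture 1 or 2 (0.0612 and 0.0828). The rest of the 30 largest falls, RTL8C, IPCEF1, ANKRD55, KCTD12 and PLEKHH1, lay between -1.37 and -1.15.

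Both receptor genes of interleukin 18 signalling were lower. IL18R1 and IL18RAP, which encode both chains of the interleukin 18 receptor and were picked after their values were seen, differed by -1.0 ± 0.15 and -1.08 ± 0.17, with adjusted p-values of 0.00137 and 0.00218 (limma).

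ZNF117, a zinc finger protein gene, was the largest rise. It read 6.69, 6.12 and 6.71 with the empty vector and 9.05, 8.99 and 8.58 in EVI1-labelled cells. The difference was 2.37 ± 0.22 with an adjusted p of 5.33e-05 (limma). All 4 of its probe sets were called higher, by 1.5 to 2.37, though those whose design names mark cross-hybridising probes may also read related zinc finger genes. Of 8 measured zinc finger genes from its region of chromosome 7, ZNF117 was the only one called, and the others ran from -0.05 for ERV3-1 to 0.48 for ZNF736. Over all genes 3.27% were called. LMNB1, which encodes lamin B1 of the nuclear lamina, read 8.32, 8.32 and 8.53 against 10.33, 10.54 and 10.22, a difference of 1.97 ± 0.22 and an adjusted p of 1.77e-04. The rest of the lamina and envelope list was not called: LMNA stood at 0.01, LMNB2 at -0.08, the lamin B receptor gene LBR at -0.04 and EMD, which encodes emerin, at 0.18. FRMD4A, a scaffold of cell polarity, read 6.06, 5.85 and 6.52 against 8.07, 7.97 and 7.97, a difference of 1.86 ± 0.22, and its 3 brightest probe sets rose by 1.79 to 1.86.

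The other large rises were of genes with varied roles. RAB13, a GTPase of endosomal recycling, read 5.74, 5.69 and 5.95 against 7.36, 7.06 and 7.45, a difference of 1.5 ± 0.13. ATP9A, a P4-type flippase gene, differed by 1.47, DOCK9, an exchange factor gene for the GTPase CDC42, by 1.34, the signalling scaffold gene SASH1 by 1.36 and RALGAPA2, a subunit gene of the GTPase-activating complex for Ral, by 1.1. The other probe sets of DOCK9, at 0.05 to 0.39, were not called. Of 21 Rab and vesicle traffic genes 2 were higher, RAB13 and RAB32 (0.50 ± 0.10), and 2 lower, with a median of 0.02. Over all genes 3.27% were called. RAB32 lost its call without empty vector culture 2 (0.0621) or EVI1-labelled culture 3 (0.0517). TRIM71, an RNA-binding ubiquitin ligase gene best known from stem cells, read 6.78, 6.21 and 6.24 against 7.78, 7.89 and 7.55 (1.33 ± 0.17). TMEFF2, a membrane protein gene with follistatin-like domains, differed by 1.23, the voltage sensor gene TMEM266 by 1.21, TXNDC2, a thioredoxin gene, by 1.37, TANC2, a scaffold gene, by 1.0 and GCH1, the rate-limiting enzyme of tetrahydrobiopterin synthesis, by 0.94. EMP2, a tetraspan membrane protein gene, rose by 0.94 ± 0.13. Its relative EMP1 read 4.25, 4.09 and 5.82 against 6.05, 6.48 and 6.49, so that 1 empty vector array lay close to the other group; the difference of 1.62 ± 0.33 was not called without empty vector culture 1 or 2 (0.0805 and 0.0725) or EVI1-labelled culture 2 or 3 (0.0669 and 0.0594), and none of its other 5 probe sets was called. GPR18, a receptor for lipid mediators, at 1.22 ± 0.31, lost its call without any 1 of the 6 arrays (0.0622 to 0.181). The remaining members of the 30 largest rises, from TRAF5 at 0.98 to WDR7 and ARPC1A at 0.85, included CNIH3 and NUDT16L1.

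KIT, the receptor for stem cell factor, rose while the gene of its ligand was lower. KIT read 4.99, 5.0 and 5.19 against 6.23, 6.02 and 6.22, from the edge of background, a difference of 1.1 ± 0.14 (adjusted p = 5.21e-04, limma). KITLG stood at 5.60 and 4.11 as group means. Of 24 growth factor and cytokine receptors KIT alone was called, beside 3.27% called over all genes. CSF1R stood at 0.12, CSF3R at -0.41, FLT3 at 0.02 and CSF2RA at -0.11. PAX5, the defining transcription factor of B cells, read 7.27, 7.55 and 7.16 against 8.08, 8.30 and 8.30 (0.90 ± 0.14), without MS4A1 (3.59 and 3.73) or a called CD79A (0.15). The other probe set of PAX5, at 0.05, was not called.

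Of the genes of antigen presentation 3 were called, all higher, beside 1.32% called higher over all genes. HLA-DMA, which loads peptides onto class II molecules, read 6.49, 5.77 and 5.99 against 7.06, 6.72 and 7.39, a difference of 0.97 ± 0.20. HLA-DRB1, a class II beta chain gene that shares probes with its close paralogs, read 8.06, 7.67 and 7.73 against 8.64, 8.49 and 8.91 (0.86 ± 0.16). These were the 2 called of 13 class II genes, and the list's median was 0.17 with 12 of 13 above 0, as were 52.2% of all genes. HLA-DRA read 8.73, 7.31 and 7.98 against 9.70, 9.18 and 9.77, and its difference of 1.54 ± 0.45 missed the threshold at an adjusted p of 0.0947 (limma). HLA-DMA lost its call without empty vector culture 2 or 3 (0.0732 and 0.0577) or EVI1-labelled culture 1 or 3 (0.053 and 0.0641), and HLA-DRB1 without empty vector culture 2 (0.0555) or EVI1-labelled culture 3 (0.0507). Of 16 class I genes PSMB9, a subunit of the immunoproteasome, was called, at 9.01, 8.71 and 8.81 against 9.80, 9.67 and 9.99 (0.98 ± 0.17), and 15 of 16 were above 0 with a median of 0.24. TAP1, the peptide transporter gene beside it, stood at 0.56 ± 0.17 (adjusted p = 0.113). Of 25 interferon response genes IRF1 alone was called, at 0.42 ± 0.10, and not without empty vector culture 1 or 3 (0.17 and 0.146) or EVI1-labelled culture 1, 2 or 3 (0.058, 0.165 and 0.111). IFIT3 stood at 0.92 ± 0.37.

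CDKN1A, which encodes the CDK inhibitor p21, read 7.67, 7.76 and 7.90 with the empty vector and 8.47, 8.30 and 8.77 in EVI1-labelled cells. The difference was 0.74 ± 0.11 (adjusted p = 0.00226, limma). With GADD45A (0.39), the death receptor gene TNFRSF10B (0.39) and FAS (0.37) it made 4 of 22 CDK inhibitor and p53 target genes higher and none lower, beside 1.32% higher over all genes, with a list median of 0.15. GADD45A and TNFRSF10B were lost without any 1 of the 6 arrays (0.053 to 0.166 and 0.055 to 0.104). The other probe sets of TNFRSF10B, at 0.04 to 0.17, were not called. FAS was lost without empty vector culture 2 or 3 (0.103 and 0.0522) or EVI1-labelled culture 1, 2 or 3 (0.0675, 0.0744 and 0.0966). Among the 18 members not called, the p53 targets ZMAT3, MDM2 and BAX stood at -0.44, the lowest of the list, -0.01 and 0.18, and the inhibitor gene CDKN1B at 0.12. None of 30 cell cycle and mitosis genes was called, with a median of -0.11, PLK1 lowest at -0.37 and MCM7 highest at 0.41. MYC stood at -0.07. Of 16 genes of MYC and ribosome biogenesis RRS1 was lower (-0.43 ± 0.10), which was lost without any 1 of the 6 arrays (0.053 to 0.131), and 14 were below 0.

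Calls in the signalling and housekeeping lists stood beside 3.27% called over all genes. Of 25 AP-1 and immediate early genes DUSP6, a phosphatase gene that acts on ERK, rose by 0.55 ± 0.08 with all 3 of its probe sets called. JUN read 9.80, 9.82 and 9.59 against 9.19, 9.05 and 9.30 (-0.56 ± 0.12), and missed the threshold without empty vector culture 1 or 2 (0.107 and 0.103) or EVI1-labelled culture 1 or 2 (0.0808 and 0.122). Another probe set of JUN was called at -0.84, and those at -0.15 and -0.24 were not. Of 26 NF-kB and inflammatory genes the kinase gene IKBKB was lower (-0.71 ± 0.10), while NFKB1, RELA and TNFAIP3 stood at -0.28, -0.15 and 0.07. In the BCL2 family of 17 the killer gene BIK was higher (0.60 ± 0.14) and the survival gene BCL2L1 lower (-0.45 ± 0.08). BIK was lost without any 1 of the 6 arrays (0.0789 to 0.159) and BCL2L1 without EVI1-labelled culture 1 (0.0516). Of 17 heat shock and unfolded protein genes DNAJB9 was higher (0.66 ± 0.14) and PDIA4 lower (-0.33 ± 0.08). DNAJB9 was lost without empty vector culture 1 or 2 (0.0855 and 0.0962) or EVI1-labelled culture 1 or 3 (0.0528 and 0.0931). PDIA4 was lost without empty vector culture 1 or 2 (0.121 and 0.0939) or any 1 EVI1-labelled culture (0.0905 to 0.094). Its other probe set, at -0.16, was not called. None was called of 22 respiratory chain genes (median 0.02), 25 glycolysis and hypoxia genes (-0.04) or 17 cytosolic ribosomal protein genes (0.00), whose members all lay between -0.13 and 0.05. Of 17 genes that earlier studies tied to EVI1, a list that may rest in part on these samples, CDKN1A was higher and MS4A3 and BCL2L1 were lower. Over all genes 3.27% were called.

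**Figure D3:**
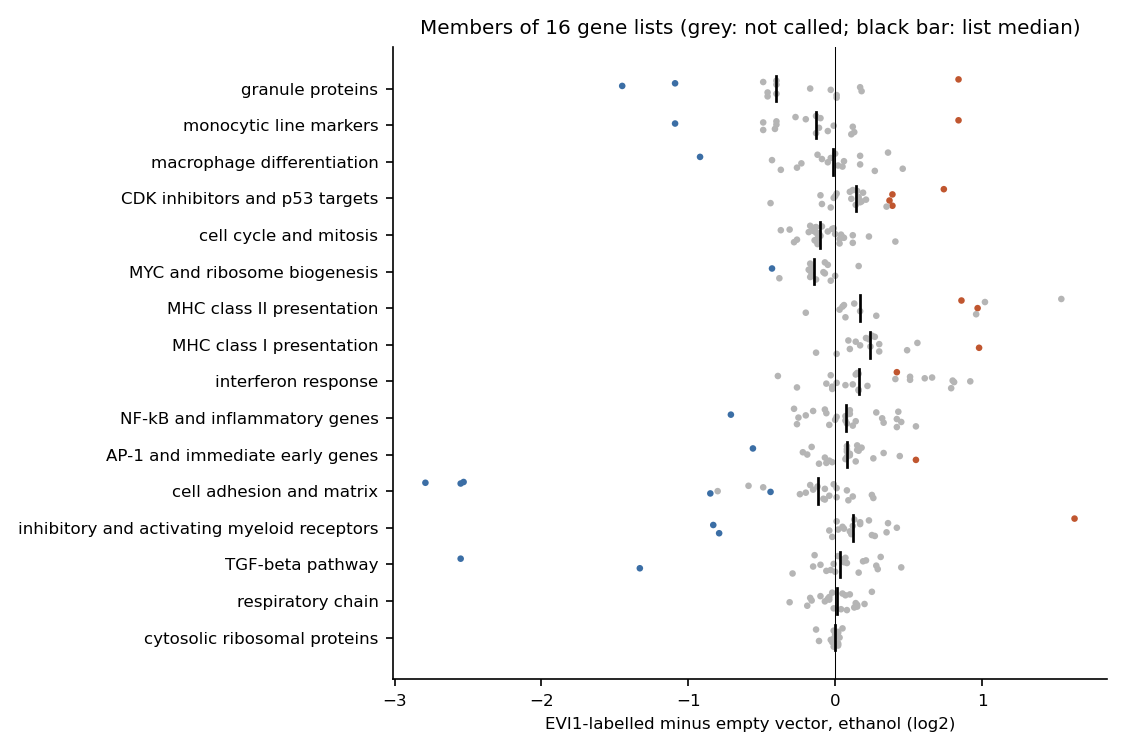
Each point is 1 measured gene of the list named at the left, placed by its difference EVI1-labelled minus empty vector in ethanol (log2); orange and blue points were called, grey points were not, and black bars are list medians. In most lists few points are coloured, some grey points such as HLA-DRA (1.54) lie beyond coloured ones of their list, and the ribosomal protein genes all lie between -0.13 and 0.05.

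Part of the difference followed the order of genes on chromosomes. Above 5.07, 12643 genes could be ordered by the RefSeq table of GRCh38.p14. In 6 stretches a running median of 21 neighbours left the band of -0.25 to 0.25 at 10 or more genes. Up to 10 genes in a row inside the band were bridged, so a stretch also holds genes whose running median lay within it. The stretches were chosen from these same values, so what follows describes them and tests nothing. They held 382 genes and 168 of the 647 called, 74 higher and 94 lower, and 13 of the 70 that differed by at least 1. The longest, on chromosome 7 from GATAD1 to MET, held 140 genes with a median of 0.45; 72 were called higher and none lower. Its members included CDK6, the cell cycle kinase gene, at 0.69 ± 0.09, PIK3CG, a phosphoinositide kinase gene of leukocytes, at 0.80 ± 0.13, RINT1, a vesicle tethering gene, at 0.88 and ARPC1A, an actin nucleation gene, at 0.85. The largest was ZNF789, a zinc finger gene, at 1.02. Its quartiles were 0.24 and 0.61, and 129 of its genes were above 0. The genes named for the stretches here, beyond those of the naming rule, were picked after their values were seen.

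The longest lower stretches lay on chromosomes 20 and 8. From TMEM239 to DEFB124 on chromosome 20, 96 genes had a median of -0.42, and 43 were called lower. Examples were SEC23B, a coat protein gene of secretory vesicles, at -0.85 ± 0.11, XRN2, an exonuclease gene, at -0.69 ± 0.11 and THBD at -2.19. RALGAPA2, at 1.1, was the only gene called higher in it. Of the named genes on chromosome 20 but outside the stretch as drawn, ID1, HM13 and BCL2L1 were lower and ATP9A was higher. How near they lie to the stretch was not examined. On chromosome 8, 80 genes up to COPS5 had a median of -0.39, and 36 were called lower and none higher. ASH2L, STAR, RAB11FIP1, DDHD2, PLAG1, PLPP5, IKBKB and RRS1 all lay here, as did EIF4EBP1, which encodes a repressor of translation initiation, at -1.06 ± 0.10, LSM1, an RNA decay gene, at -0.99 ± 0.09, the metalloprotease gene ADAM9 at -0.94 ± 0.08 and the methyltransferase gene NSD3 at -0.91 ± 0.10. The losses of ASH2L and STAR were thus larger than, and in the direction of, a loss shared with their neighbours.

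The other 3 stretches were short. TMEM106B was 1 of 24 genes of chromosome 7 from INTS15 to ABCB5, 21 of them below 0, with a median of -0.23 against its own -3.98. The next were SNX13 (-0.73), UMAD1 (-0.70) and PHF14 (-0.61), and 6 were called lower in all. A stretch of 28 genes on chromosome 15 from INSYN1 to MAN2C1 had a median of -0.19 with 9 called lower, RPP25 lowest at -0.79. On chromosome 6, 14 genes from GTF2H5 to PLG had a median of 0.26, and WTAP, an RNA methylation factor gene, was the only one called (0.42 ± 0.08). It was lost without culture 2 of either population (0.0642 for empty vector cells and 0.0687 for EVI1-labelled cells). By chromosome, 13% of the tested genes were called on 7, 10.7% on 20, 8.11% on 8, 7.85% on 21 and 4.41% on 15, against 3.27% over all. With the genes of the 6 stretches left out and p-values adjusted again, 411 genes were called, 156 higher and 255 lower. Of the 30 largest rises and 30 largest falls, 4 and 7 lay in a stretch.

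**Figure D4:**
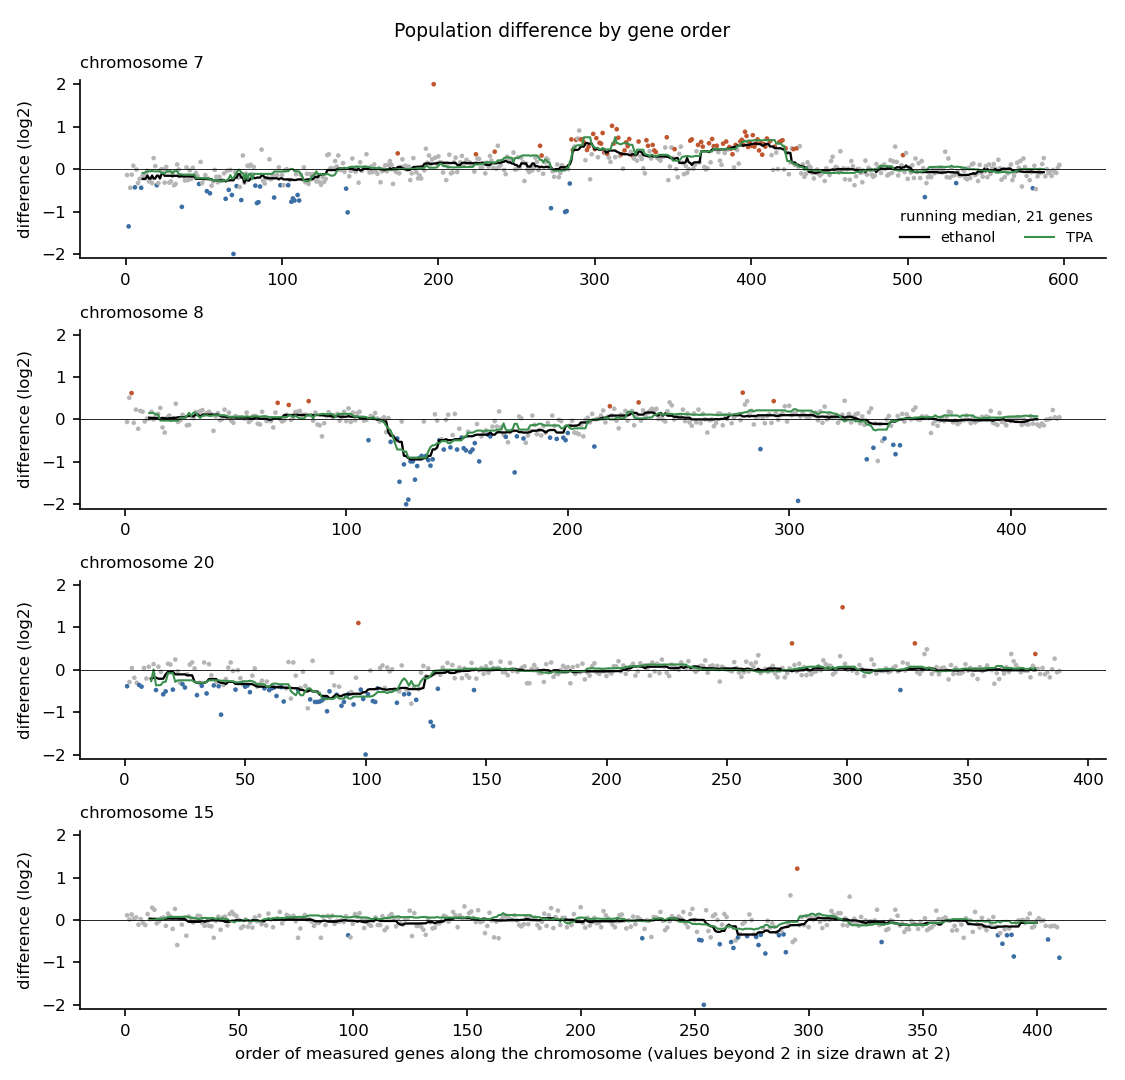
The difference EVI1-labelled minus empty vector in ethanol (log2, vertical axis) for genes above background in their order along chromosomes 7, 8, 20 and 15; orange and blue points were called higher and lower, grey points were not called, and lines are running medians of 21 genes in ethanol (black) and TPA (green). The black and green lines leave 0 at the same places: upward on chromosome 7 and downward on chromosomes 8 and 20.

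The same populations in TPA share no array with the ethanol comparison, although all 12 arrays set the common error. In TPA 2214 genes (11.2%) were called between the populations. Of the 647 genes called in ethanol 582 (90%) had the same sign in TPA, beside 57.1% of all genes, and 425 (65.7%, or 19.2% of the TPA calls) were called there as well, 416 in the same direction and 9 in the opposite. Across the 647 genes the differences in ethanol and TPA had a Pearson r of 0.81 and a Spearman rho of 0.80, as a description, since the genes are not independent. Of the 70 genes that differed by at least 1, 53 were called the same way in TPA. The losses of DNAJC15 and TMEM106B stood at -3.82 and -3.50 in TPA and the rises of ZNF117, LMNB1 and RAB13 at 2.86, 2.89 and 1.40. The longest stretches had medians of 0.49 in TPA on chromosome 7 from GATAD1 to MET, -0.38 on chromosome 20 and -0.31 on chromosome 8, against 0.45, -0.42 and -0.39 in ethanol. Among the short stretches the median on chromosome 6 was 0.11 in TPA against 0.26 in ethanol. It was -0.15 against -0.19 on chromosome 15 and -0.18 against -0.23 on chromosome 7 from INTS15 to ABCB5.

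A minority differed by treatment. The change in the population difference between treatments was called for 392 genes (1.98%) in all and for 60 of the 647, of which 44 were smaller in TPA and 16 larger. The ethanol arrays that chose the 647 also enter this test, which favours smaller differences in TPA. CD300A stood at -0.07 in TPA, where both populations read 10.91 to 10.98 as means. CDKN1A stood at -0.08 in TPA. KIT stood at 0.19, between TPA means of 3.92 and 4.11 that were both below 5.07. CD36 went from -0.92 in ethanol to 1.21 in TPA, called in both. ANKRD55 stood at -1.32 in ethanol and 0.52 in TPA, but its TPA means of 3.65 and 4.18 were both below 5.07. CADM1 and LTBP1 were lower still in TPA, at -5.33 and -4.43. Further genes were picked after their values were seen: the thrombomodulin gene THBD stood at -4.51 and JAKMIP2, below 5.07 in both populations in ethanol, went from 1.3 to 4.24. PIM1, a survival kinase gene, was higher by 0.62 in ethanol and stood at -0.44 in TPA, called in both.

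**Figure D5:**
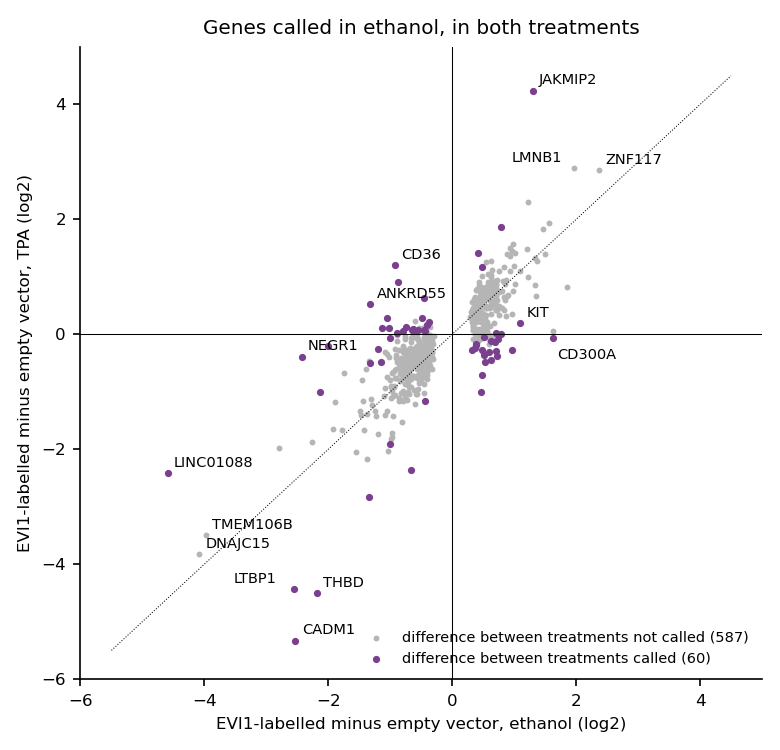
Each point is 1 of the 647 genes called in ethanol, with its population difference in ethanol (log2, horizontal axis) and in TPA (log2, vertical axis); purple points are the 60 genes whose change between treatments was called, and the dotted line marks equal differences. Most points lie in the lower left and upper right, CD300A lies near 0 on the TPA axis, and CADM1, LTBP1 and THBD lie below the line.

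Other probe sets of the called genes bore on the calls. Of the 647, 441 had further probe sets, 154 of these had another one called the same way, and CSTF3 alone had one called the opposite way. Of the 60 genes with the largest rises and falls, 36 had further probe sets, 20 had another called the same way and none the opposite way.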

How the data were processed

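Total RNA from 12 U937 cultures, 250 ng each, was labelled by 3' in vitro transcription and hybridised to Affymetrix U133 Plus 2.0 arrays, per the labels' protocols. The deposited values are log2 RMA signals which the authors produced with Expression Console 1.3 of Affymetrix, per the submitters' processing notes. RMA forces arrays to 1 distribution, so a shift that most genes share cannot be seen, and differences of dim genes are compressed. No source used here says whether all arrays entered 1 RMA run. Array medians lay between 5.07 and 5.11 and values between 1.98 and 14.6. The number of arrays limits the precision.

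Among 54675 probe sets (62 controls), GEO's annotation of the array named 1 gene for 41091, several genes for 1801 and no gene for 11783. Those with 1 gene were kept. Each of 19775 genes was read by its brightest such probe set, by mean over the 12 arrays. Groups were compared by a linear model of 4 group means on the 12 arrays in limma 3.58.1 under R 4.3.3 (8 residual and 5.22 prior degrees of freedom, median SE 0.11), two-sided tests and Benjamini-Hochberg adjustment over all genes at 0.05. SD is the spread of 3 arrays and SE that of the fit. The fit was tested on simulated data in which each gene had independent normal noise. Neighbouring genes that move together and a pairing by number were not simulated, so that test does not bear on them.

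Named genes were the 30 largest rises and 30 largest falls among called genes whose ethanol groups did not overlap and whose higher mean exceeded 6.12, the median of gene means, with MECOM, MS4A3, CDKN1A and up to 3 called genes each way of 34 gene lists (718 entries, 646 measured). The comparison, lists and the level of 5.07 were chosen with earlier results of these data known, so no list is independent support. RefSeq gene names, order and promoters are of GRCh38.p14; 37 genes were not matched. Between the ethanol groups same-numbered arrays correlated in their deviations at 0.176, 0.143 and 0.0753. Differently numbered arrays correlated at -0.135 to -0.0207, all negative. The same-numbered values were not each over 0.1, so the main fit did not pair the samples, but a pairing by number remains possible. With a replicate block 613 of the 647 genes were still called. Alternatives changed the arrays fitted, normalization, probe set choice, filter, prior, a minimum difference and a replicate block; leaving out the stretches and unadjusted p-values were added after the data were seen.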

Additional observations from a re-analysis of the deposited data

Results flagged for a closer look

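For 14 named genes the population difference itself differed between ethanol and TPA, by the interaction test of limma with Benjamini-Hochberg adjustment over 19775 genes. Differences are TPA minus ethanol on the log2 scale, and the genes were chosen on the ethanol arrays that enter the test. The ethanol difference was not kept in TPA for CD300A (-1.70 ± 0.23, adjusted p = 0.00179), KIT (-0.90 ± 0.20, 0.0342), CDKN1A (-0.81 ± 0.16, 0.0224) and TNFRSF10B (-0.56 ± 0.12, 0.0365), which were higher in ethanol. It was smaller, absent or of other sign for LINC01088 (2.16 ± 0.40, 0.0152), ID1 (0.82 ± 0.18, 0.0311), P2RY2 (0.94 ± 0.17, 0.0135), PLEKHH1 (0.67 ± 0.15, 0.0391), CCR2 (1.35 ± 0.25, 0.0146), ANKRD55 (1.84 ± 0.29, 0.00474) and CD36 (2.13 ± 0.32, 0.00401), which were lower in ethanol. It was larger for CADM1 (-2.80 ± 0.17, 3.22e-06), LTBP1 (-1.88 ± 0.28, 0.00401) and IPCEF1 (-1.48 ± 0.30, 0.0233). In ethanol the means of LINC01088, CADM1 and CCR2 in EVI1-labelled cells and of KIT in empty vector cells were below 5.07. In TPA both populations were below it for KIT (3.92 and 4.11), CCR2 (4.09 and 4.37) and ANKRD55 (3.65 and 4.18), so their small or opposite differences in TPA are between readings at background, and EVI1-labelled cells were below it for LINC01088 (3.10) and CADM1 (4.48). All these sizes are uncertain.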

How the results depend on the processing

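The count of 647 called genes (262 higher, 385 lower) became 369 to 466 when 1 of the 6 arrays was left out (147 to 178 higher, 219 to 306 lower). It was 41 (9 higher, 32 lower) when a difference of 0.5 had to be exceeded, and 2506 (1159 and 1347) with unadjusted p-values. Without the genes of the 6 stretches it was 411 (156 and 255), fewer by construction. With ethanol arrays only 396 genes were higher and 945 were called; the cause was not tested. With a replicate block 729 genes were called (287 higher), and 783 with the block on ethanol arrays only. Whether the numbers pair the samples was not settled.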
